A study of Mus musculus with 24 samples.

Results

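Daxx and 9 genes whose products work with it were examined in chromatin accessibility data from sorted mouse bone marrow cells. The 10 genes were Daxx, Atrx, H3f3a, H3f3b, Hira, Ubn1, Asf1a, Asf1b, Pml and Sp100, of 21911 coding genes in the annotation (GENCODE M21, genome build mm10), and the rule that chose them names their function and uses no measured value. Every peak and every listed site within a gene or 10 kb of it was taken, which gave 48 of 100446 peak elements (overlapping peaks of all lists merged) and 6, 14 and 23 sites from tables that listed 11927, 17311 and 50928. ATAC-seq, in which a transposase cuts and tags open DNA, had been run on 24 libraries in 11 groups, each with 2 or 3 libraries and 1 peak list made from them together. All mice were of strain C57BL/6 and, by their labels, all carried 1 Cre allele, controls included.

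The Daxx-WT groups were labelled Daxx +/+ Cre +/-, the Daxx-KO groups Daxx F/F Cre +/- and the DKO group by floxed alleles of both Daxx and Pu.1 (F/F for each gene) with Cre +/-, where F is a floxed allele that Cre can excise. Pu.1 is a transcription factor of blood cells. Stem cells with lasting activity (LT-HSCs) and both myeloid progenitor types, common (CMPs) and committed to granulocytes and monocytes (GMPs), came from mice with a tamoxifen-activated Cre expressed from the Rosa26 locus in all tissues. The study places these cells 3 weeks after tamoxifen, although their labels carry no time. A further set of LT-HSCs was labelled 3 d.p.i. (days post induction), with 3 Daxx-KO and 2 Daxx-WT libraries. For work at 3 d.p.i. the study injected tamoxifen into mice of the same Cre line. Mice of that line used for ATAC-seq at 3 weeks had received it by mouth, at a lower dose. KLS cells (c-Kit+ Lin- Sca-1+, a mixture of stem cells and multipotent progenitors) were labelled 3 w.p.i. (weeks post induction), with 3 Daxx-KO, 2 Daxx-WT and 2 DKO libraries. For the Daxx and Pu.1 double knockout line the study used Mx1Cre, an interferon-inducible Cre that was switched on with the RNA mimic pI:pC, and for the KLS libraries it does not spell out the Cre line. The 3 d.p.i. controls are both labelled Daxx +/+, whereas a legend of the study lists Daxx +/+ and Daxx +/F. The labels were followed.

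Histone H3.3 is the replacement form of histone H3, and it is put into chromatin at all times of the cell cycle rather than with DNA synthesis. Daxx and its partner Atrx, a chromatin remodeller, place it at repeats, telomeres and silent regions, while the Hira complex, with Ubn1, places it at active genes. Daxx is also a resident of PML nuclear bodies, which the Pml protein builds and in which Sp100 is a constant component. The question put to the data was whether regulatory DNA at the partner genes differed once Daxx was lost.

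Site values came from 3 tables, of LT-HSCs at 3 d.p.i. and of KLS cells with Daxx-KO or DKO set against Daxx-WT. A single window of 600 bp held 4.21 to 16.0 reads on average in a library. The second Daxx-KO LT-HSC library and the second Daxx-KO KLS library, numbered in header order, were the shallowest, with 4.21 and 4.54 reads, and the second DKO library the deepest. Both Daxx-WT KLS libraries differed at the sites of the Daxx-KO table by no more than sampling noise (chi-square per degree of freedom 0.949) but by more at the sites of the DKO table (1.85), and they were kept as 2 libraries. The study calls its replicates independent biological samples, and no label names the animal behind a library. The p-values rest on the spread between these samples, which the fit described below partly borrows from the other sites of the same table.

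Daxx lies on the plus strand of chromosome 17 (chr17:33909414-33915590). Its start site was covered by a single wide peak in all 11 lists, and the end of that peak inside the gene depended on genotype. In the 5 Daxx-WT lists the peak reached 885 to 914 bp into the gene, past most of intron 1. In the 5 Daxx-KO lists and the DKO list it stopped 549 to 623 bp into the gene. The groups of lists did not overlap, and no test was made because each group has 1 list. On the upstream side the edge was at -1035 to -950 bp in the Daxx-WT lists and at -1076 to -1007 bp in the others. Exon 2 begins 1017 bp from the start and is the first of the floxed exons 2 to 7. Whether the stretch of intron 1 in which the peak ends differed is excised with these exons was not tested.

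**Figure D1:**
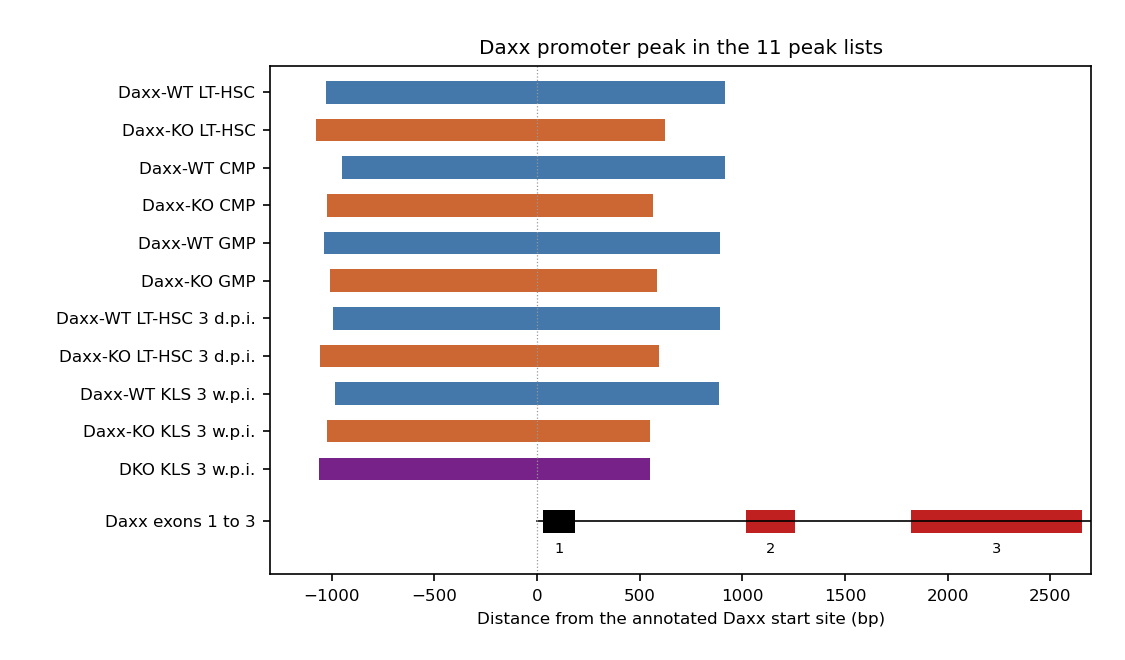
Extent of the Daxx promoter peak in each of the 11 peak lists. The horizontal axis gives the distance from the annotated start site in bp, bars are peaks (blue, Daxx-WT; orange, Daxx-KO; purple, DKO), and the boxes at the bottom are exons 1 to 3, with the floxed exons 2 and 3 in red. The bars of the Daxx-KO and DKO lists end at 549 to 623 bp and those of the Daxx-WT lists at 885 to 914 bp.

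The DNA at the start site and the intron stretch that separated the genotypes are printed because they hold the start and the differing end of the Daxx peak. The start-site window (chr17:33909141-33909440, plus strand, mm10) had 69.0% G and C with 32 CpG dinucleotides, and the capitals mark a CCAAT box (as its complement ATTGG) and an ETS motif (CCGGAAGT, as its complement). The intron 1 window (chr17:33910038-33910299, plus strand) lay inside the peak in every Daxx-WT list and outside it in every Daxx-KO and DKO list. Its capitals mark a pair of adjoining CCAAT boxes and a match to the interferon response motif (GAAA, 2 bases of any kind, GAAA).
Daxx start site: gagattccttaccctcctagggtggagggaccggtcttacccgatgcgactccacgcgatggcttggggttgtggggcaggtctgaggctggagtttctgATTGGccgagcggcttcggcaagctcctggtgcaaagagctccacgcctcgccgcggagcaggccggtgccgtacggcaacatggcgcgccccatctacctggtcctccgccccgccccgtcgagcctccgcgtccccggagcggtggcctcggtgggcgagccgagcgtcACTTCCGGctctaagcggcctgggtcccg
Daxx intron 1: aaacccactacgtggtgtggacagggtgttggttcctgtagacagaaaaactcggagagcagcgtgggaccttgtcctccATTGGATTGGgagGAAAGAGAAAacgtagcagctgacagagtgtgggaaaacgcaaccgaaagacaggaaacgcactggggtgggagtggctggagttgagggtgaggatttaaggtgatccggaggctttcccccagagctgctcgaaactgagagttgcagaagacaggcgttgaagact

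The peak that remained at the Daxx start was a strong one. In the 5 lists that give fold enrichment over background, it stood at 12.1 in Daxx-WT and 15.6 in Daxx-KO LT-HSCs. The KLS lists gave 8.01 for Daxx-WT, 13.2 for Daxx-KO and 11.4 for DKO. Within their own lists these values ranked at the 93.1, 99.2, 81.6, 98.8 and 99.8 percentile of all peaks. The lists differ in length (36949, 44326, 33325, 44694 and 22156 peaks in the same order), so that the percentiles describe each list and show no change of the peak. The listed Daxx sites over exons 2 to 3, 2 to 5 and 1 to 5 overlapped the end of this peak inside the gene. Those over exons 6 to 7 and over exon 8 lay beyond the peak, and no listed Daxx site reached the start site.

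Reads over the floxed part of Daxx check the labels, and all of them were lower without Daxx. Each value is a scaled read number, the reads of 1 library over the site divided by a constant for that library. The site over exons 2 to 3 in the LT-HSC table (chr17:33909701-33911600) had 69.7, 108.8 and 61.2 scaled reads with Daxx deleted and 200.6 and 365.7 without deletion. The highest Daxx-KO library stayed below the lower control, and groups did not overlap at 99.5% of all sites of that table. The Daxx-KO libraries held 24.6%, 38.4% and 21.6% of the control mean. In KLS cells the site over exons 2 to 5 (chr17:33909601-33912700) had 54.6, 90.1 and 61.2 against 255.4 and 294.6 scaled reads. The site over exons 6 to 7 (chr17:33913451-33914950) had 13.4, 7.0 and 9.41 against 88.5 and 53.9 scaled reads, or 9.83% to 18.8% of the control mean. Excised DNA gives no reads, so these sites over floxed exons do not measure accessibility alone. Reads of cells that kept the exons and stray background reads cannot be told apart here, and how open the kept copies were cannot be told either.

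Sites were fitted with limma on log2(scaled reads + 1), with p-values adjusted by Benjamini-Hochberg over all windows that had been tested. The sites were listed by the authors because these same libraries differed there, so the fit is no independent test. At Daxx the log2 difference of Daxx-KO from Daxx-WT was -1.79 ± 0.21 (SE) in LT-HSCs (limma adjusted p = 6.94e-07), and -2.02 ± 0.23 and -2.72 ± 0.35 in KLS cells (limma adjusted p = 7.22e-05 and 0.000407). In the DKO libraries the matching sites had 97.6 and 74.0 against 262.7 and 301.6 scaled reads, and 6.36 and 8.43 against 79.9 and 45.0, with log2 differences of -1.72 ± 0.25 and -2.87 ± 0.42 (limma adjusted p = 3.44e-09 and 6.18e-09). Both KLS comparisons share the Daxx-WT libraries. The remaining Daxx site of the DKO table lay over exon 8, outside the floxed part (chr17:33914951-33915550). It had 61.5 and 80.6 scaled reads in DKO and 37.3 and 35.1 in Daxx-WT, a rise of 0.94 ± 0.30 on the log2 scale (limma adjusted p = 0.0175). This site ends 349 bp before an annotated start of the neighbour Tapbp, and with reads scaled to the mean per window its difference was 0.26 (limma adjusted p = 1.00).

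A limit holds for every call in the LT-HSC and Daxx-KO KLS tables. The fit lets the error depend on the mean value, and without that trend no site of either table passed (limma adjusted p at the Daxx sites of 0.301 in LT-HSCs and 0.284 at both sites in KLS cells). With reads scaled to the mean per window, the Daxx calls over exons 2 to 3 in LT-HSCs and over exons 2 to 5 in Daxx-KO KLS cells were lost as well (limma adjusted p = 1.00 for both).

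The promoters of the partners were open in nearly every list. By the rule used (a peak over an annotated start within 1 kb of the 5′ end), 8 or 9 of the 10 genes had a promoter peak in each list, against 45.4% to 60.8% of all coding genes. The 17 other histone chaperone genes had a promoter peak in all 11 lists. Atrx, H3f3a, Hira, Ubn1, Asf1a and Asf1b had one in all 11 lists, as Daxx did. Sp100 had it in 10 and lacked it in Daxx-KO CMPs, and Pml had it in 9 and lacked it in Daxx-WT and Daxx-KO GMPs. H3f3b counts as having none only because its annotated 5′ end rests on a single long transcript. A peak covered its inner start sites in all 11 lists, 1047 to 1203 bp wide and with 5.81- to 6.37-fold enrichment.

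**Figure D2:**
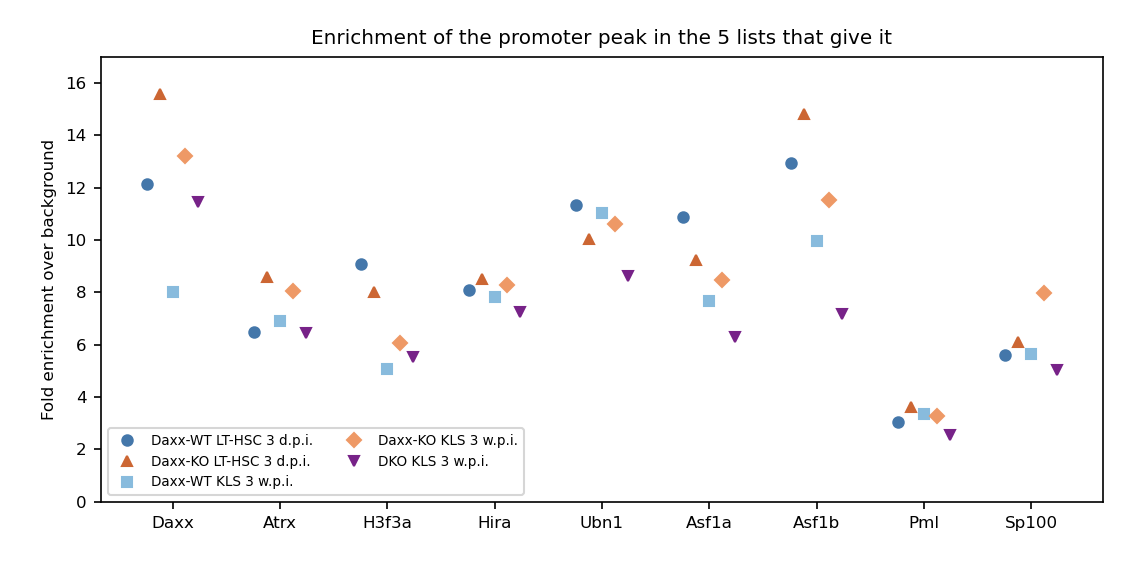
Fold enrichment of the promoter peak over background in the 5 lists that give it, for the 9 genes with a peak under the rule. Each marker is 1 list, so no error can be drawn. Pml lies lowest in every list (2.56 to 3.63), and DKO KLS cells have the lowest value at 7 of the 9 genes (all but Daxx and H3f3a). The DKO list also has the lowest median enrichment over all its peaks, 4.93-fold, against 5.67- to 6.35-fold in the others.

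The order of enrichment set Pml apart from the rest. Its promoter peak had 2.56- to 3.63-fold enrichment, between the 0.609 and the 9.12 percentile of its list, and was 303 to 794 bp wide. Asf1b, the Asf1 form tied to proliferating cells, had 7.18- to 14.8-fold enrichment, and Ubn1 had 8.64- to 11.3-fold. Hira had the widest promoter peak for its lists, 1831 to 2268 bp or the 94.1 to 99.0 percentile of promoter peaks, and its start lies 175 bp from that of Mrpl40, so that the peak serves both. Ubn1 likewise starts 194 bp from its neighbour Glyr1. The Atrx peak was 761 bp wide in DKO KLS cells and 1360 to 1707 bp in the other 10 lists, while its enrichment in the DKO list, 6.46-fold, lay beside 6.92-fold in Daxx-WT and 8.06-fold in Daxx-KO KLS cells. None of these differences has a replicate check.

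The wider set of elements near the genes was compared between lists. The 48 elements ranged from 2 at Hira and at Ubn1 to 12 at Pml, and 16 of them (33.3%) were present in all 11 lists, against 15.0% of all elements. A list held 20 to 42 member peaks, fewest in DKO KLS cells and most in Daxx-KO LT-HSCs. Those lists were also the shortest and the longest, with 22156 and 70455 peaks. Peaks with no counterpart in the other genotype were about as common at the members as elsewhere in LT-HSCs, CMPs and GMPs. They were 6 of 42 Daxx-KO peaks (14.3%, against 13.9% of the list) and 2 of 37 Daxx-WT peaks (5.41%, against 6.78%) in LT-HSCs, 2 of 31 (6.45%, against 6.26%) and 8 of 37 (21.6%, against 28.5%) in CMPs, and 1 of 29 (3.45%, against 4.55%) and 11 of 39 (28.2%, against 27.6%) in GMPs. For LT-HSCs at 3 d.p.i., 3 of 30 Daxx-KO peaks (10%, against 24.1%) and 0 of 27 Daxx-WT peaks (against 8.68%) had none. The KLS counts were 6 of 29 Daxx-KO peaks (20.7%, against 31.8%) and 3 of 26 Daxx-WT peaks (11.5%, against 8.06%). Against DKO, 6 of 26 Daxx-WT peaks had no counterpart (23.1%, against 48.4%), and all 20 DKO peaks had a Daxx-WT counterpart, while 21.4% of the whole DKO list had none. Of the 23 member elements held by both the Daxx-WT and the Daxx-KO KLS list, 4 were missing from the DKO list, against 44.6% of all such elements. They lay past the 3′ end of H3f3a (6.3 and 1.0 kb beyond it), in a UTR of Asf1a and inside Pml.

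**Figure D3:**
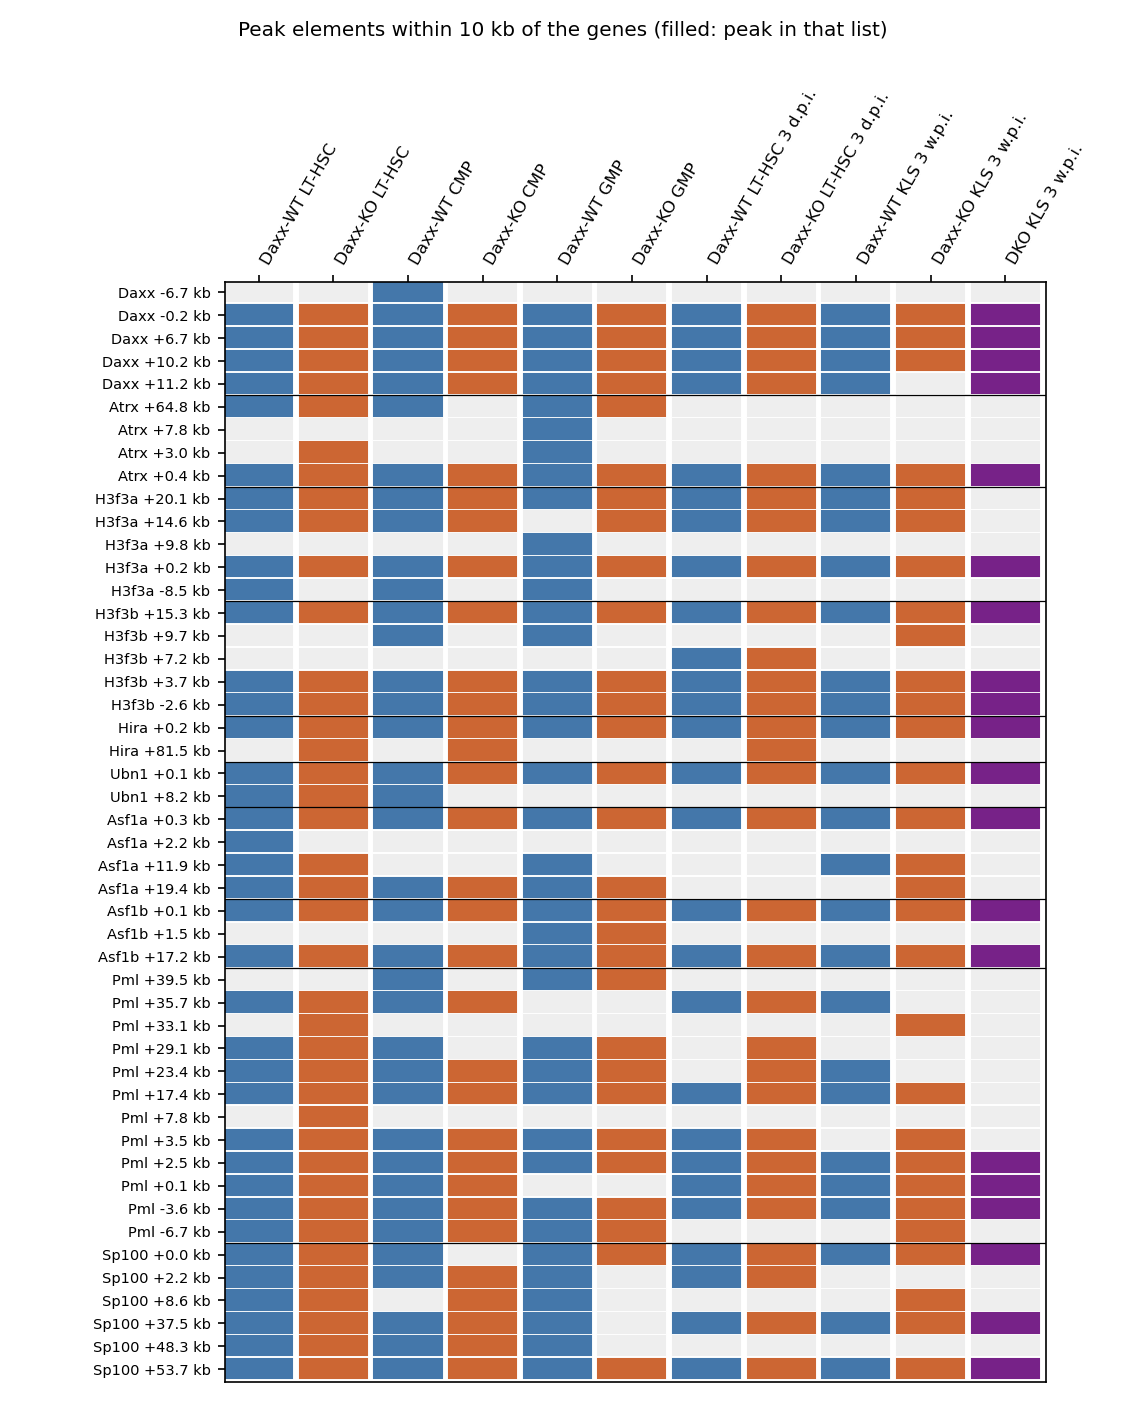
Presence of the 48 peak elements in the 11 lists. Rows are elements, named by gene and by the distance of their middle from the annotated start in kb (negative values lie upstream), columns are lists, and a filled box marks a peak (blue, Daxx-WT; orange, Daxx-KO; purple, DKO). 16 rows are filled across all lists, and the DKO column has the fewest filled boxes.

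A single element was found in at least 3 Daxx-KO lists and no Daxx-WT list, and a single one in at least 3 Daxx-WT lists and no other. The first lay in an intron of Hira, 81.5 kb from its start (chr16:18958141-18958756), with peaks in Daxx-KO CMPs and both Daxx-KO LT-HSC lists. It was absent from the Daxx-KO GMP and KLS lists and from DKO. Its enrichment in the 3 d.p.i. list was 7.93-fold, the 67.0 percentile. Of all elements 0.135% had at least 3 Daxx-KO lists and no Daxx-WT list. No listed site overlapped it, so that its values per library are not known here. The other lay 8.2 kb upstream of H3f3a (chr1:180822185-180822647), with peaks in Daxx-WT LT-HSCs, CMPs and GMPs and none in the Daxx-KO or DKO lists, a pattern of 0.138% of all elements. It was also absent from both Daxx-WT lists with a time label.

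The middle 300 bases of both elements are printed in the direction of their gene, since no other of the 48 was held by 3 or more lists of 1 genotype alone. The Hira window (chr16:18958344-18958643, plus strand) holds a CCAAT box, in capitals as its complement. The H3f3a window (chr1:180822308-180822607, minus strand) holds none of the 6 motifs searched.
Hira intronic element: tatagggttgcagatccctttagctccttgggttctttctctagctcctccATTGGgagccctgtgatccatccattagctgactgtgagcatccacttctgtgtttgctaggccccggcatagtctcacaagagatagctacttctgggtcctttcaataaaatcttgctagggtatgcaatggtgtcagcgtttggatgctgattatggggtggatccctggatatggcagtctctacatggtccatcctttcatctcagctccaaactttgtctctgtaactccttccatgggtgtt
H3f3a upstream element: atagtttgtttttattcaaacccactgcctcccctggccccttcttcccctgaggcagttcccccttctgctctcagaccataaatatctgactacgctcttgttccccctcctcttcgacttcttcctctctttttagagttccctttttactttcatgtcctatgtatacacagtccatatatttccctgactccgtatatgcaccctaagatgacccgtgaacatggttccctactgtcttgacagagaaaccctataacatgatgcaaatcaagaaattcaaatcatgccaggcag

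H3f3a and H3f3b encode the same H3.3 protein. H3f3a lies on the minus strand (chr1:180800832-180813943). A site in its promoter peak (chr1:180813001-180813600) had 429.5, 452.4 and 349.4 scaled reads in the Daxx-KO LT-HSC libraries against 305.4 and 307.6 in their controls. All 3 Daxx-KO libraries were above both controls, and groups did not overlap at 99.5% of all sites of that table. The log2 difference of 0.41 ± 0.19 missed the threshold (limma adjusted p = 1.00). The Daxx-KO KLS table held a site upstream of the gene (chr1:180821001-180822150), next to the upstream element above, with 30.1, 14.0 and 11.3 against 47.4 and 55.0 scaled reads. Its log2 difference was -1.54 ± 0.34 (limma adjusted p = 0.0597). Another, in the gene body, had 27.8, 16.6 and 19.8 against 41.1 and 44.7 scaled reads (limma adjusted p = 0.123). Neither passed. No Daxx-KO library reached a control at either, and groups did not overlap at 99.6% of all sites of that table.

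The element just beyond the 3′ end of H3f3a was the clearest change at a partner gene, and it was found in DKO cells. A peak 1.0 kb past the gene (chr1:180798740-180799853) was present in 9 lists and absent from Daxx-WT GMPs and from DKO KLS cells. The DKO site over it (chr1:180798751-180800050) had 37.1 and 67.5 scaled reads in DKO and 155.3 and 129.4 in Daxx-WT KLS cells. It fell by 1.48 ± 0.27 on the log2 scale (limma adjusted p = 4.06e-06), and its call held under all 13 alternatives run. Of the 28 called sites at the 10 genes this was so for 1 other, the DKO site over Daxx exons 1 to 5. No Daxx-KO site was listed there, and the peak stood at 5.35-fold in Daxx-KO and 4.74-fold in Daxx-WT KLS cells, with 8.43-fold and 7.89-fold in the LT-HSC lists. Whether DKO differs from Daxx-KO at this element was not tested.

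The middle of that element (chr1:180799157-180799456, minus strand) is printed because the motif of Pu.1, the factor lost in DKO alone, occurs in it. The capitals mark a match to the interferon response motif and, further on, GAGGAAGT, the Pu.1 motif. GAGGAAGT occurred on either strand in 8.70% of all elements' middle 300 bases and in 4 of the 48 member elements (8.33%), and the interferon response motif in 5.01% and in 4 of 48 (8.33%). Of the 4 elements that were in both other KLS lists and missing from the DKO list, the other 3 held no GAGGAAGT in their middle 300 bases. A match is a string of letters and not a shown binding site.
H3f3a downstream element: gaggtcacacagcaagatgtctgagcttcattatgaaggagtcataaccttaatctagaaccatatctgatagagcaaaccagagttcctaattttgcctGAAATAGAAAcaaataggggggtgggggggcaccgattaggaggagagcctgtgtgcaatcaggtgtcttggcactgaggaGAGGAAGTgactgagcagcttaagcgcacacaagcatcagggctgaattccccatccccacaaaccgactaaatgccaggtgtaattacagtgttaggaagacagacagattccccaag

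Other H3f3a sites went the opposite way in DKO. A site 7.6 kb past the gene (chr1:180791701-180793200) had 127.3 and 132.1 against 70.1 and 50.5 scaled reads, and an intronic site (chr1:180803551-180804700) had 78.5 and 76.8 against 30.2 and 41.7. Both rose by 1.11 on the log2 scale (limma adjusted p = 0.000921 and 0.00342). Neither lay in a peak of the DKO or Daxx-WT KLS list, though the intronic one covered an element of the Daxx-WT GMP list. The site past the gene overlapped the edge of an element that 10 lists held. With reads scaled to the mean per window the differences were 0.42 and 0.43 (limma adjusted p = 1.00 for both). The first call was also lost without the second Daxx-WT library (limma adjusted p = 0.0765) and the other without the first (limma adjusted p = 0.166).

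H3f3b lies on chromosome 11 (chr11:116021912-116027962, minus strand), and its sites were higher in all 3 tables. In LT-HSCs a pair of long sites lay past its 3′ end. The farther one (chr11:116017401-116018700) had 393.7, 252.0 and 374.8 scaled reads with Daxx deleted, against 202.8 and 160.4 in the controls. It rose by 0.88 ± 0.20 on the log2 scale (limma adjusted p = 0.0106). The nearer one (chr11:116018801-116020400) had 918.6, 496.3 and 706.2 against 474.4 and 423.9 scaled reads, the highest values at any member site, with a log2 difference of 0.61 ± 0.22 that missed the threshold (limma adjusted p = 0.274). In both, the lowest Daxx-KO library lay above the higher control, and groups did not overlap at 99.5% of all sites of that table. A site near the neighbour Unk (chr11:116037651-116038300) had 36.7, 32.5 and 38.0 against 19.2 and 14.1 scaled reads and rose by 1.07 ± 0.28 (limma adjusted p = 0.0388). Both H3f3b calls were lost when some libraries were left out. The log2 differences stayed above 0, which groups that do not overlap ensure. These were 0.77 and 1.05 without the first Daxx-KO library (limma adjusted p = 0.184 and 0.280), 0.80 and 1.03 without the last (limma adjusted p = 0.0727 and 0.153), and 0.72 and 0.86 without the second Daxx-WT library (limma adjusted p = 0.691 and 0.895). Without the first Daxx-WT library the log2 difference near Unk was 1.28, and that call was lost too (limma adjusted p = 0.0952).

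The H3f3b values of KLS cells again lay higher, without a call in Daxx-KO. The Daxx-KO site 0.6 kb past the gene (chr11:116020751-116021350) had 108.0, 87.5 and 48.0 against 40.1 and 43.6 scaled reads (limma adjusted p = 0.145). The DKO site over the annotated 5′ end (chr11:116027501-116028300) had 86.9 and 90.9 against 63.0 and 19.7 scaled reads. It rose by 1.30 ± 0.29 on the log2 scale (limma adjusted p = 0.000311), but the 2 Daxx-WT libraries differed by more than the gap between the groups. Without the second Daxx-WT library, which had 19.7, its difference was 0.49 (limma adjusted p = 1.00), and with reads scaled to the mean per window it was 0.62 (limma adjusted p = 1.00).

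**Figure D4:**
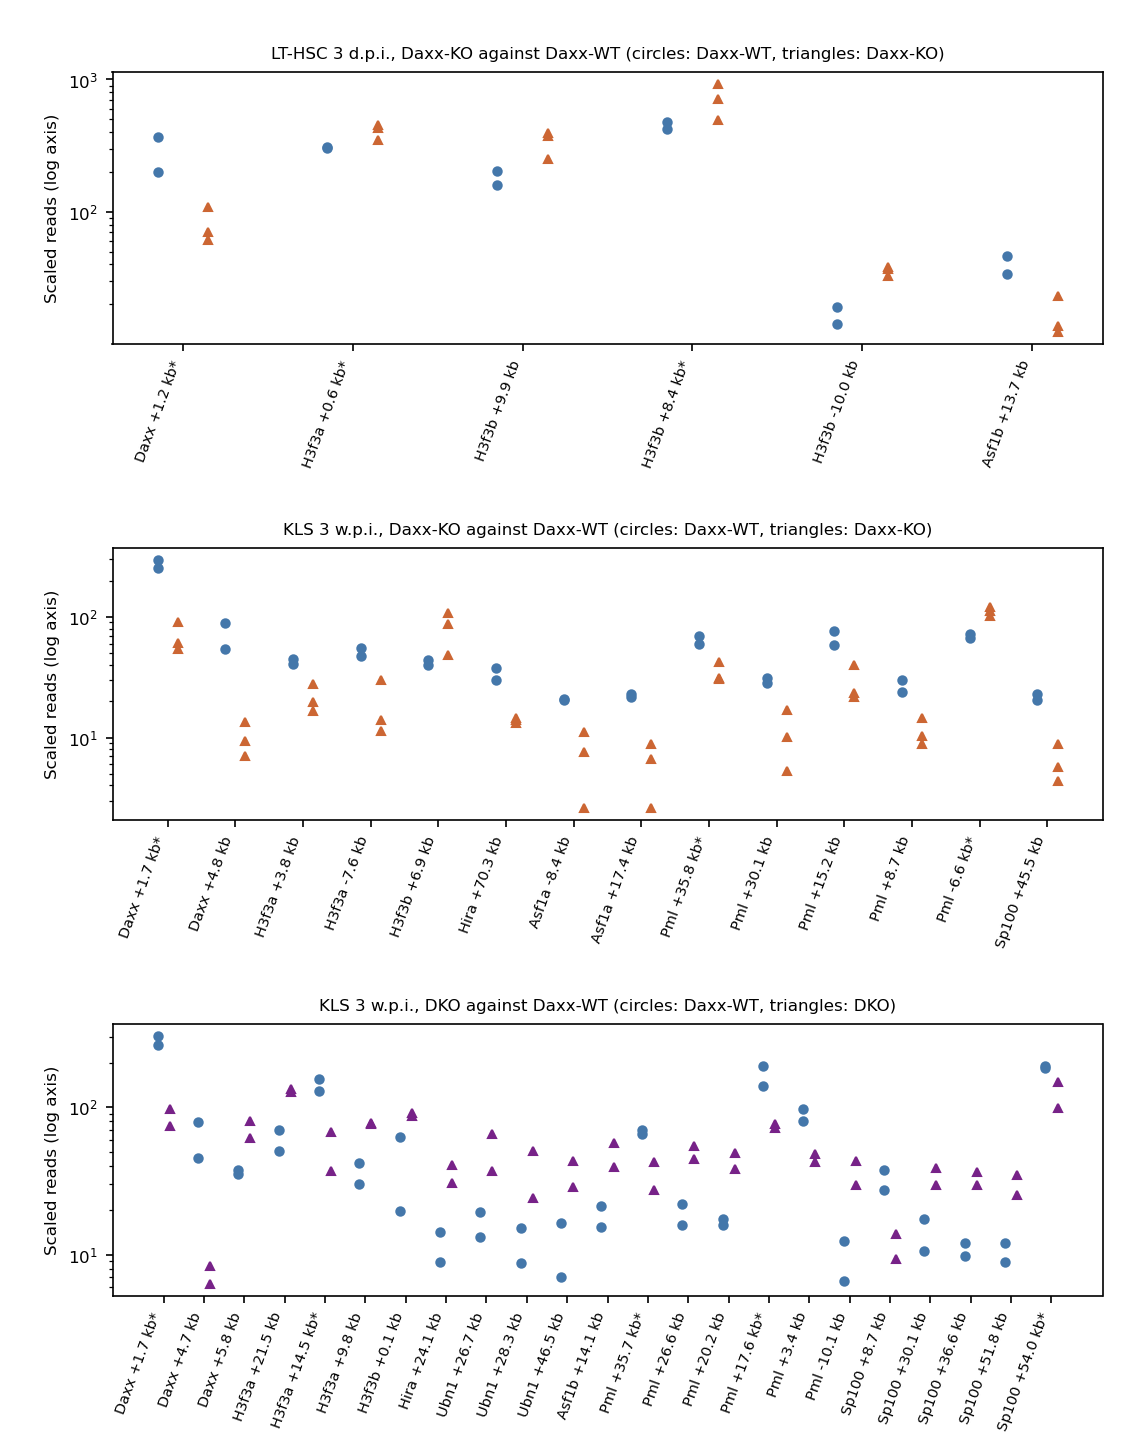
Scaled reads of every library at each of the 43 listed sites within 10 kb of the 10 genes, 1 panel for each table, on a log axis. Circles are Daxx-WT libraries and triangles Daxx-KO or DKO libraries, sites are named by gene and by the distance of their middle from the annotated start in kb, and an asterisk marks a site that overlaps a peak of either group. Groups do not overlap at any of the 43 sites, nor at 99.5%, 99.6% and 100% of all sites of the 3 tables.

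Atrx, the partner with which Daxx places H3.3 at repeats, had no listed site in any of the 3 tables, although it is the longest of the 10 genes (131789 bp, chrX:105797615-105929403). Its intron held an element 64.8 kb from the start in 5 lists (Daxx-WT LT-HSCs, CMPs and GMPs, Daxx-KO LT-HSCs and GMPs), and the other intronic elements appeared in 1 or 2 lists. A missing site says only that no window there was selected, not that accessibility was equal.

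The Hira complex had sites outside peaks. Hira, the scaffold subunit, had a site in a coding exon 70.3 kb from its start (chr16:18946951-18947800) with 14.5, 14.0 and 13.2 against 30.1 and 37.8 scaled reads when Daxx-KO and Daxx-WT KLS cells were compared, a log2 difference of -1.22 ± 0.33 (limma adjusted p = 0.0934). In DKO, an intronic site (chr16:18900801-18901550) had 30.8 and 40.3 against 8.87 and 14.3 scaled reads and rose by 1.56 ± 0.44 (limma adjusted p = 0.0071). Ubn1, the subunit that recognises H3.3, had 3 DKO sites, with means of 51.3, 37.5 and 35.9 against 16.3, 11.9 and 11.8 scaled reads (n = 2 in each group). All 3 rose, by 1.53 to 1.60 on the log2 scale. Scaled to the mean reads per window, the 4 differences were 0.87 to 0.95 and none passed, and all 4 calls were lost without the second DKO library (limma adjusted p = 0.206 to 0.837).

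Asf1a and Asf1b hand histones on to the chaperones that deposit them. Asf1a had a pair of sites in Daxx-KO KLS cells, both outside the gene and neither past the threshold (limma adjusted p = 0.264 and 0.145). The one upstream had 11.1, 2.62 and 7.53 against 20.98 and 20.6 scaled reads. The one downstream had 8.91, 2.62 and 6.58 against 22.8 and 21.8 scaled reads. At 3 d.p.i. Asf1b had a site in a coding exon and UTR near its end (chr8:83968751-83969600) with 22.9, 12.4 and 13.7 against 46.2 and 33.8 scaled reads. It fell by 1.27 ± 0.32 on the log2 scale (limma adjusted p = 0.0266), a call lost without the first (limma adjusted p = 0.0677) or last Daxx-KO library (limma adjusted p = 0.104) or either Daxx-WT library (limma adjusted p = 1.00 and 0.180). The overlapping DKO site (chr8:83969151-83970050) went the other way, with 39.2 and 57.1 against 21.3 and 15.4 scaled reads, a rise of 1.34 ± 0.35 (limma adjusted p = 0.00322) that was lost without the second library of either group (limma adjusted p = 0.234 and 0.121). These are different cells, times and table scalings, and the difference between them was not tested.

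Pml, the scaffold of the nuclear bodies, had the most listed sites of the 10 genes, with 5 in Daxx-KO and 6 in DKO KLS cells and none at 3 d.p.i. It lies on the minus strand of chromosome 9 (chr9:58218076-58249786). Of the Daxx-KO sites 4 had lower and 1 higher means, and none passed (limma adjusted p = 0.0615 to 0.147). The higher one lay upstream, at a start site of the neighbour Stoml1 (chr9:58255901-58256900), with 102.4, 120.7 and 112.9 against 67.5 and 72.2 scaled reads, and the Daxx-KO list had a peak there that the Daxx-WT KLS list lacked. The lower one with the most reads in controls inside the gene (chr9:58234001-58235200, over a coding exon) had 40.1, 21.9 and 23.5 against 58.4 and 76.8 scaled reads.

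In DKO, 3 Pml sites fell and 3 rose. An element in the gene 17.4 kb from its start (chr9:58231748-58233327) had a peak in every list but DKO, and the site over it had 76.4 and 72.1 scaled reads in DKO and 190.8 and 139.3 in Daxx-WT. It fell by 1.12 ± 0.26 on the log2 scale (limma adjusted p = 0.000482, and 0.0960 without the first Daxx-WT library). Sites 3.4 kb from the start (chr9:58245951-58246800) and 3.5 kb past the gene (chr9:58213651-58214550) fell by 0.95 ± 0.28 and 0.97 ± 0.30 (limma adjusted p = 0.0104 and 0.0149), and each call was lost without the trend (limma adjusted p = 0.0812 and 0.0696) or without the first Daxx-WT library (limma adjusted p = 0.290 and 0.171). The 3 that rose, by 1.31 to 1.87, lay outside peaks and had 36.4 to 49.4 scaled reads on average in DKO against 9.50 to 19.0 in Daxx-WT. Each of these rises was lost without the second DKO library (limma adjusted p = 0.109 to 0.203).

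The Pml start site is printed as the weakest promoter of the set (chr9:58249757-58250036, minus strand, the last 30 bases transcribed), with a match to the Pu.1 motif in capitals as its complement ACTTCCTC. This motif occurred in 3.20% of 32851 RefSeq promoters of 300 bases around the start and in 1 of the 13 promoters that RefSeq lists for the 10 genes. The Pml promoter peak was called in DKO cells too, at 2.56-fold, beside 3.34-fold in Daxx-WT and 3.26-fold in Daxx-KO KLS cells.
Pml start site: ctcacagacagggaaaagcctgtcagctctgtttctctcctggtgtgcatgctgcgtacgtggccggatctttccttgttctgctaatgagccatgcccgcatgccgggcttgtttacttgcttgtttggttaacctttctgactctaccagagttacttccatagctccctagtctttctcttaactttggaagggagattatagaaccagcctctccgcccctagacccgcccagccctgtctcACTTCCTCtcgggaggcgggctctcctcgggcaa

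Sp100 (chr1:85649988-85709998, plus strand), an interferon-induced component of the same bodies, had its strongest element inside the gene rather than at the start. The element 53.7 kb from the start (chr1:85703157-85704211), which covers a further annotated Sp100 start, was present in all 11 lists with 7.99- to 15.6-fold enrichment, against 5.05- to 7.97-fold at the promoter. The DKO site in it had 147.4 and 98.4 against 190.8 and 185.4 scaled reads, with a log2 difference of -0.64 ± 0.25 (limma adjusted p = 0.0907). The single Daxx-KO site of Sp100 had 8.91, 4.37 and 5.64 against 22.8 and 20.6 scaled reads (limma adjusted p = 0.152). In DKO, 3 intronic or exonic sites outside peaks rose by 1.24 to 1.52 and an intronic one (chr1:85658201-85659150) fell by 1.42 ± 0.46 (limma adjusted p = 0.0219). The rises were lost without any 1 of the 4 libraries, and the fall without the second DKO library (limma adjusted p = 0.149) or either Daxx-WT library (limma adjusted p = 0.435 and 1.00).

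A second Sp100 element, 37.5 kb from the start (chr1:85686695-85688001), had 10.7-fold enrichment in Daxx-KO, 6.93-fold in Daxx-WT and 4.87-fold in DKO KLS cells, the 92.0, 69.8 and 48.6 percentile of those lists. The LT-HSC lists had it at 5.13-fold with Daxx deleted and 5.05-fold in controls. No Daxx-KO site was listed there. A DKO site from the rises above (chr1:85686251-85686850) overlapped the edge of the element, but no DKO or Daxx-WT KLS peak. This site had 29.7 and 36.5 against 9.76 and 12.1 scaled reads, a rise of 1.52 ± 0.46 (limma adjusted p = 0.0131). The middle of the element (chr1:85687299-85687598, plus strand) is printed because its enrichment had the widest range of any distal element that all KLS lists hold. The capitals mark a CCAAT box as its complement.
Sp100 intronic element: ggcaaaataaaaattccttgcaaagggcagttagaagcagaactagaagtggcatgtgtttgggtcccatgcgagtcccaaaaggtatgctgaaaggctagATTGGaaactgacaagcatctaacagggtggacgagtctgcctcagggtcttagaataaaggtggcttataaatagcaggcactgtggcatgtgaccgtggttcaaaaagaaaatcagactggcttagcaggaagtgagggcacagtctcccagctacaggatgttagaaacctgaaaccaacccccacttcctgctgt

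The other motifs were spread as follows. CCAAT boxes were found in 7 of the 13 promoters (53.8%, against 37.4% of all RefSeq promoters), with 4 in each of the Asf1b, H3f3b and Atrx promoters. The ETS motif was in 3 of 13, all of them overlapping windows of Daxx, against 3.89% of all. The CRE motif (TGACGTCA) was in that of Ubn1 alone, against 1.79%. The NRF1 motif (GCGCA followed by TGCGC) and the interferon response motif were in none, against 0.971% and 3.44%. Several promoters share a gene, so these shares are descriptions.

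Counted by gene, the members can be set beside all coding genes. In LT-HSCs at 3 d.p.i. 4 of the 10 had a listed site, against 32.5% of all coding genes, with 2 higher (12.3%) and 2 lower (24.6%). Of the 10, 7 had a site in Daxx-KO KLS cells (44.4%), with 2 higher (9.78%) and 6 lower (39.9%). In DKO 8 had a site (66.3%), all 8 with a higher one (54.3%) and 4 with a lower one (34.8%). Daxx was among them each time, as the deleted gene. The groups did not overlap at any of the 6, 14 and 23 sites, which was so for 99.5%, 99.6% and 100% of all listed sites (50909 of 50928 in the last).

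Counted by site, the members' median lay above that of the table in LT-HSCs and close to it in KLS cells. In LT-HSCs 4 of 6 sites had higher means, against 29.1% of the table, and 2 sites rose and 2 fell of 6 (all listed sites: 19.2% and 25.8%). Of 14 sites in Daxx-KO KLS cells 0 rose and 2 fell, both of them Daxx sites (2.26% and 1.16%), and these were lost without the first or the last Daxx-KO library. All 14 had an unadjusted p below 0.05, and voom, limma's variant for read numbers, called 1 higher and 9 lower. In DKO 15 rose and 7 fell of 23 (70.9% and 25.1%). Without the second DKO library 3 rises passed, and without either Daxx-WT library 5. Without the first Daxx-WT library 2 falls passed. Without Daxx, the median log2 difference was 0.61 over 5 LT-HSC sites, against -1.05 over all sites of that table. It was -1.24 over 12 sites (against -1.27) in Daxx-KO and 1.31 over 20 sites (against 1.29) in DKO KLS cells. All but 1 of the 5 LT-HSC sites belonged to H3f3a or H3f3b.

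Most sites inside peaks fell and most outside rose in DKO. All 15 member sites that rose lay outside the peaks of both groups, and all 5 that overlapped a peak had lower means in DKO, of which 4 passed. A further 3 sites outside the peaks of both groups fell. They lay over Daxx exons 6 to 7, in Pml 3.4 kb from its start and in Sp100 8.7 kb from its start. The Pml and Sp100 sites covered elements held by 9 and 5 of the 11 lists, the Daxx-KO KLS list among them. Of all DKO sites, 88.2% of those outside peaks were higher and 69.8% of those inside were lower. The direction outside peaks was the reverse in Daxx-KO KLS cells, with 10 of 11 member sites lower, against 91.4% over the table. The libraries' totals differed between the groups as well, and their part in these directions was not tested. After the deposited scaling the mean reads per window were 10.6 and 15.0 in the DKO libraries against 7.39 and 8.19 in their controls, and 3.98 to 9.03 in Daxx-KO KLS cells against 7.60 and 8.61. With every library set to the same mean per window, the median of all sites moved by 0.33 in LT-HSCs, 0.47 in Daxx-KO and -0.67 in DKO KLS cells. Then 1 of the 15 DKO rises and all 7 falls still passed, and no member site changed sign.

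**Figure D5:**
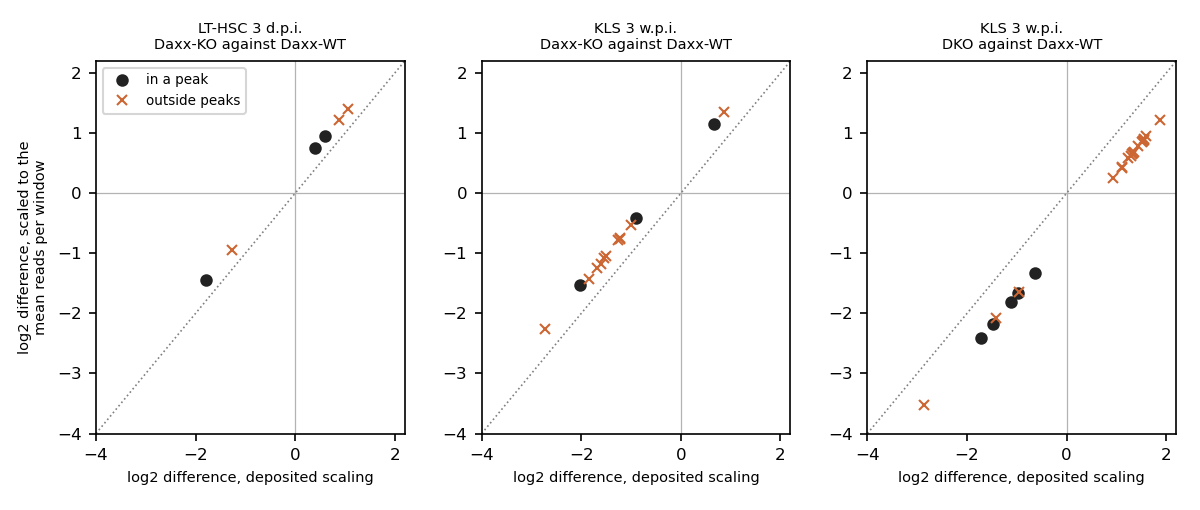
Log2 difference of each member site under the deposited scaling (horizontal) and with every library scaled to the same mean reads per window (vertical), 1 panel for each table. Circles overlap a peak of either group, crosses do not, and the dotted line marks equality. Points lie above the line in both Daxx-KO tables and below it in the DKO table, where every cross above 0 moves towards 0 and every circle away from it.

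Further genes of the same pathways were counted in the same way. Among 17 other histone chaperone genes, LT-HSCs had higher sites at 5 (29.4%, against 12.3% of all coding genes) and lower sites at 7 (41.2%, against 24.6%). The counts for KLS cells were 1 and 10 genes in Daxx-KO (5.88% and 58.8%, against 9.78% and 39.9%) and 12 and 5 in DKO (70.6% and 29.4%, against 54.3% and 34.8%). A site near a pair of listed genes was counted once. At 3 d.p.i. 4 of their 5 higher and 7 of their 14 lower sites passed. Of the Daxx-KO KLS sites 0 of 1 and 0 of 18 passed limma, although all 19 had an unadjusted p below 0.05 and voom called 0 and 12. In DKO 52 of 52 and 5 of 7 passed. Their median log2 differences were -1.13, -1.26 and 1.35. Of the changes past the threshold, Cabin1, a partner of the Hira complex, had the largest fall in reads among their 3 d.p.i. sites (41.1 against 93.7 scaled reads, limma adjusted p = 0.00312). In DKO, Chd1, a remodeller of active genes, had the largest rise in reads (177.0 against 62.7, limma adjusted p = 9.88e-07) and Chaf1b, a subunit of the replication-coupled chaperone CAF-1, the largest fall (95.0 against 225.0, limma adjusted p = 4.07e-05).

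Of 18 other PML body and SUMO genes, 16 had a promoter peak in every list and Pias1 and Usp7 in none under the rule. At 3 d.p.i. 5 genes had higher and 9 lower sites (27.8% and 50%, against 12.3% and 24.6% of all coding genes), of which 3 of 7 and 8 of 16 distinct sites passed. In KLS cells with Daxx deleted 2 and 12 genes did (11.1% and 66.7%, against 9.78% and 39.9%), and 0 of 2 and 0 of 20 sites passed limma, although all 22 had an unadjusted p below 0.05 and voom called 1 and 15. For DKO the counts were 14 and 6 genes (77.8% and 33.3%, against 54.3% and 34.8%), and 35 of 36 and 3 of 6 distinct sites passed. Of all listed sites in LT-HSCs, 2285 of 3476 higher and 3081 of 8451 lower ones passed. The counts over all sites were 392 of 3308 and 201 of 14003 in Daxx-KO KLS cells, and 36084 of 36740 and 12758 of 14188 in DKO. The median log2 differences at the PML body and SUMO genes were -1.11, -1.15 and 1.38. Trp53, which encodes p53, had the largest fall in reads at 3 d.p.i. (54.2 against 99.1 scaled reads, limma adjusted p = 0.0176). In DKO, Sumo3, which encodes a small modifier protein that is joined to Pml, had the largest rise in reads (146.0 against 57.7, limma adjusted p = 3.47e-05).

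The sorted populations were checked by promoter peaks at marker genes. Neither the 3 B-cell nor the 2 T-cell markers had a promoter peak in any list. The GMP lists had all 4 granulocyte-monocyte markers, including Elane, which no other list had. Kit had a promoter peak in all 11 lists and Cd34 in all but DKO, while Mecom and Ly6a had none in any. Camp, a neutrophil gene, had one in the CMP, GMP and DKO lists. Its part in the DKO results was not tested.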

How the data were processed

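ATAC-seq had been run on 24 libraries of sorted bone marrow cells in 11 groups, taken from the labels. Per the labels and the study's methods, the authors used CASAVA 1.8.4, cutadapt 1.13, STAR 2.5.3 and bedtools on build mm10, and diffReps 1.55.6 for the 3 site tables. The deposited peak lists give 1 list per group, 6 with positions only and 5 with a fold enrichment over background that the authors' peak caller had computed. The deposited site values are reads divided by a constant for each library, given in the file headers, and only sites selected by the authors' negative binomial test (windows of 600 bp moved by 50 bp, p below 0.0001) are listed, out of 413247, 407030 and 446463 windows. Columns of the authors' own fold changes and p-values were not used. Multiplied by the constant, values under 20 reads came out whole within 0.15 in all cases.

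Genes were taken from GENCODE release 21 of the mouse annotation, and a peak or site counted if it lay within a gene or 10 kb of it. Peaks of all lists that overlapped by at least 1 bp were merged into elements. limma 3.58.1 (R 4.3.3) was fitted with a trend to log2(scaled reads + 1) on each whole table, adjusted by Benjamini-Hochberg over all windows, with a threshold of 0.05. The members and lists were chosen with earlier results of these data known. Every listed site and every peak of the 10 genes was described, and the sites of 17 and 18 pathway genes were named by the largest difference in mean reads, except for a site that is not reported here. Alternatives were another pseudocount, scaling to the mean per window, other flanks, the replicate block, each library left out and, chosen after seeing the data, voom, no trend and any start site. Scripts ran in Python 3.11.15 with numpy 2.4.6, pandas 2.3.3 and matplotlib 3.10.9, and the fit was tested on simulated data. Sequences came from the mm10 reference and RefSeq promoters.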

Additional observations from a re-analysis of the deposited data

How the results depend on the processing

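No site of the 43 changed sign under any alternative run. The groups did not overlap at any of these sites, so only rescaling the libraries could have reversed a sign. The main counts of sites past the threshold, higher and lower, were 2 and 2 (LT-HSCs), 0 and 2 (Daxx-KO KLS cells) and 15 and 7 (DKO). Scaled to the mean per window they were 0 and 0, 0 and 1, and 1 and 7. Without the trend, chosen after seeing the data, they were 0 and 0, 0 and 0, and 14 and 5. Adjusted over listed sites alone, 4 LT-HSC sites were higher, and 2 and 12 of Daxx-KO were called. Fitted on sites inside peaks alone, the calls were 0 and 1, 0 and 1, and 0 and 3. With a mean of at least 20 scaled reads, LT-HSCs had 1 and 1, and 7 lower Daxx-KO sites were left. A pseudocount of 5 gave 9 lower Daxx-KO sites, and voom, also chosen after seeing the data, 1 and 9. Leaving out each library gave 0 to 3 higher and 1 to 2 lower in LT-HSCs, 0 to 2 lower in Daxx-KO, and 3 to 12 higher and 2 to 6 lower in DKO. An arm left with 1 library was assumed to vary like the other.

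The replicate block used numbers from the file names, which were not shown to pair libraries, and gave 1 higher and 2 lower in Daxx-KO and 15 and 7 in DKO. The higher one, the H3f3b site past the gene, had 1.20 ± 0.28 (limma adjusted p = 0.0117). For the LT-HSC table alone, no paired analysis was possible because its headers carry no replicate numbers. The edgeR test was not run, since the deposited values are scaled and not read numbers.

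Within genes alone, listed sites were 1 higher in LT-HSCs and 0 higher in Daxx-KO. Within 50 kb they were 10 and 11 in LT-HSCs (8 genes), 4 and 22 in Daxx-KO, and 49 and 18 in DKO. Those inside peaks were 2 and 1, 1 and 2, and 0 and 5. Member peaks inside genes alone, in place of within 10 kb, numbered 24 (Daxx-WT LT-HSC), 21 and 19 (Daxx-WT and Daxx-KO CMP), 25 and 17 (GMP), 16 and 19 (LT-HSC 3 d.p.i.), and 16, 17 and 13 (Daxx-WT, Daxx-KO and DKO KLS). With lists cut to 22156 peaks the 3 d.p.i. Daxx-KO list held 17, and Daxx-WT and Daxx-KO KLS 17 and 15. Depth of 4.21 to 16.0 reads per window limits what low sites can show.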
